A study of Drosophila melanogaster with 24 samples.

Results

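The proteasome is the protease complex that degrades ubiquitin-tagged proteins. Its genes were followed in Drosophila melanogaster wing discs, the larval epithelial sacs that form the adult wing, during Myc-driven cell competition. Members were the genes whose symbol in the platform annotation begins with Rpn or Rpt and a digit, or with Prosalpha or Prosbeta. They numbered 34 of the 8815 named genes tested, and fell into 10 subunits of the 20S core, 13 of the 19S cap and 11 paralogues known mainly from the testis. All 34 passed the filter of 4 or more values at each time. Another 14 genes with such symbols in the RefSeq gene table were not among the members measured here, including Prosbeta1 and Prosbeta2, so Prosbeta5 was the single catalytic core subunit that could be followed.

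Discs of tub>dmyc>Gal4 larvae of the 3rd instar, in which the ubiquitous tubulin promoter drives dmyc, were compared with discs of tub>cd2>Gal4 larvae, in which the same promoter drives cd2. Both genotypes received a 15 min heat shock at 37 degrees to create clones, and were sampled at 0, 12, 24 and 48 h. Whole discs were used, so winning, losing and unaffected cells were measured together, and fewer cells of a type cannot be told apart from less RNA per cell. Each time had 6 two-colour arrays, with dmyc in Cy5 on replicates 1 to 3 and in Cy3 on replicates 4 to 6.

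Every value below is a log2 ratio of dmyc over cd2 RNA, so no gene's level can be given and the discs could not be checked by marker level. That a positive ratio means more RNA in dmyc discs is likely rather than settled, because its only basis is which name stands first in the sample titles. If the ratio runs the other way, every sign below turns, and what is called lower in dmyc discs is higher. The log base was taken as 2. Arrays of opposite dye matched each other in pairs at every time (replicate 1 with 4, 2 with 5 and 3 with 6, except at 24 h, where 1 matched 5, 2 matched 6 and 3 matched 4), with correlations within pairs of 0.519 to 0.898 across features and of at most 0.388 otherwise. Pairs were therefore kept as a random block, with 3 pairs at each time. The fit used 1 correlation of partners, 0.443, for all features, and its p-values still counted arrays rather than pairs. For a gene whose partners agreed more closely than that, the SE and adjusted p can be too small. Whether partners came from shared RNA, and whether replicates were separate animals, is unstated, so p-values measure the spread between these arrays. Array SDs over all features were 0.18 to 0.291. The RNA of the dmyc transgene itself was not analysed here. The ratio of fwe, the membrane protein gene to which the title of the series is taken to refer, was -0.48, 0.18, 0.20 and -0.02 at 0, 12, 24 and 48 h.

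The core is a barrel of outer alpha rings, which gate the entrance, and inner beta rings, which carry the cleaving sites. The cap has a base, where the Rpt ATPases unfold substrates and thread them into the core, and a lid, where Rpn11 removes the ubiquitin chain. Subunits are needed together in fixed proportions, and in many eukaryotes their genes are regulated together. Several core and cap genes of Drosophila have duplicates that are transcribed mainly in the male germ line. In Drosophila discs, proteotoxic stress is a known mark of some loser cells.

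Several proteasome genes, most of them cap genes, changed between times when partner pairs were a random block, and the fitted differences of the members ran in both directions. At 12 h minus 0 h, 8 of 34 members passed (adjusted p below 0.05), 7 of them higher at 12 h and 1 lower, against a background of 12.4% of all 10661 features called in either direction with 9.05% called higher and 3.35% lower. Of the 8, 5 were among the 13 cap genes, 0 among the 10 core genes and 3 among the 11 paralogues. At 24 h minus 0 h, 9 members passed, 8 higher and 1 lower, against a background of 8.63% called, with 6.16% called higher and 2.47% lower. These were 6 cap genes, 1 core gene and 2 paralogues. With partners averaged before the fit, 1 member (the paralogue Prosbeta2R2) passed at 12 h minus 0 h and 0 at 24 h minus 0 h, so that no cap gene passed. All differences share the 0 h arrays, so the comparisons are not independent. Whether the cap's share differs from the core's was not tested.

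No member passed at 48 h minus 0 h by limma's test, where 0.131% of all features did. There, 10 members had an unadjusted p below 0.05, as did 17.2% of all features. At single times, 3 members passed at 0 h, all lower in dmyc discs, against a background of 4.83% of features called and 3.9% called lower. No member passed at 12, 24 or 48 h, where the background was 1.34%, 1.61% and 1.91%. An unadjusted p below 0.05 was found for 9, 10 and 1 members at these times, and for 16.3%, 16.8% and 13.6% of all features. In the test for any change over time, 7 members passed, 4 cap genes and 3 paralogues, against a background of 6.92%. The median ratio over the 34 members stayed near 0, at -0.003, 0.04, 0.04 and -0.01 at 0, 12, 24 and 48 h, beside 0.0002, 0.002, 0.004 and 0.001 over all features.

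**Figure D1:**
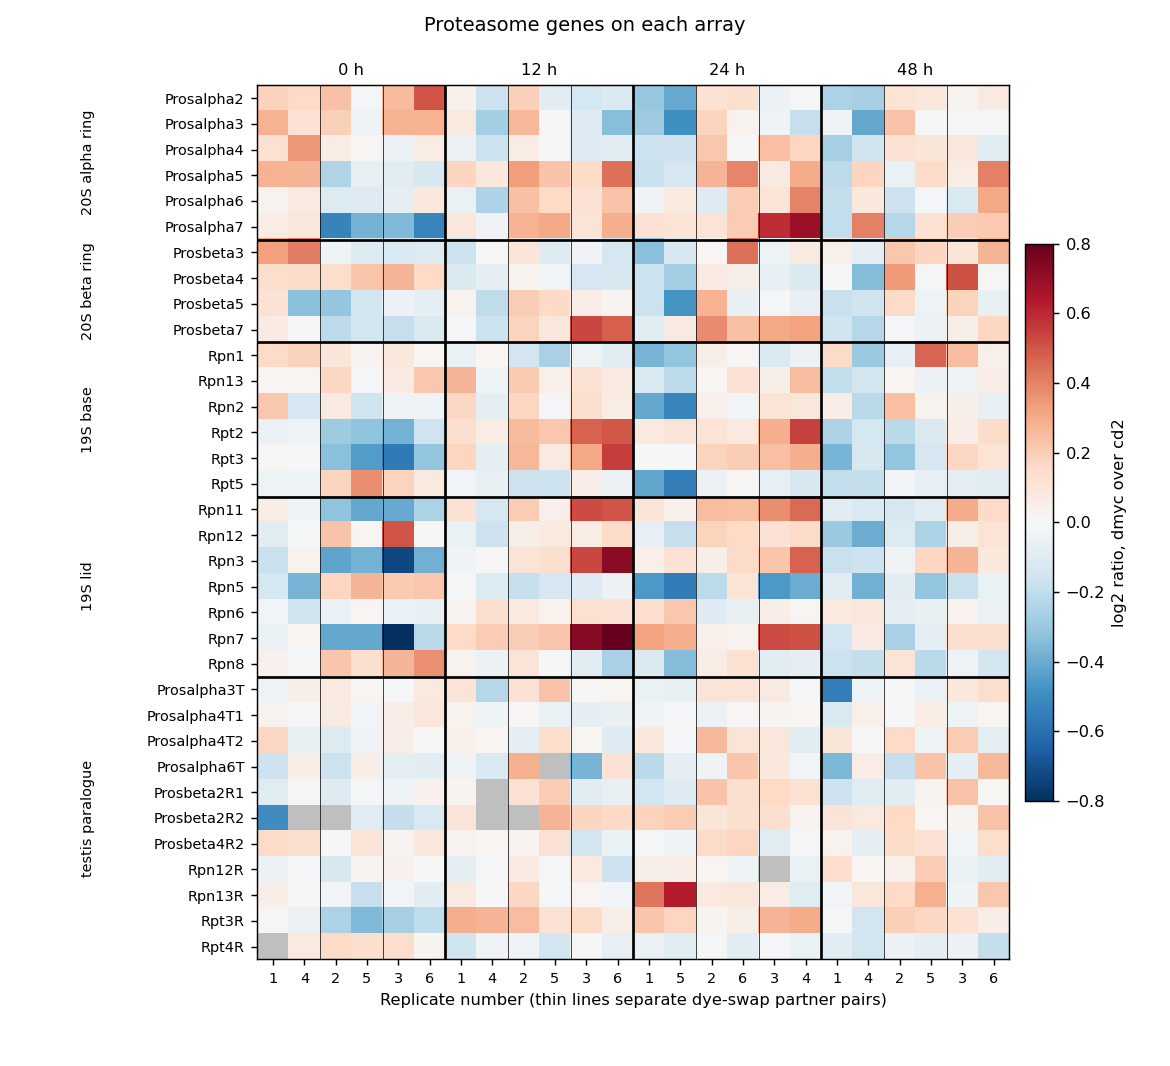
Log2 ratio (dmyc over cd2) of each of the 34 proteasome genes (rows) on each of the 24 arrays (columns), grouped by time and by dye-swap partner pair; grey cells have no value. At 0 h, Rpn3, Rpn7, Rpn11, Rpt2, Rpt3 and Prosalpha7 are below 0 on the 4 arrays of the pairs of replicates 2 and 5 and of 3 and 6 (Rpt2 on all 6 arrays), and their darkest red cells lie in the pair of replicates 3 and 6 at 12 h (for Rpt2 and Prosalpha7, replicates 3 and 4 at 24 h).

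In the alpha ring, 6 of the 7 subunit genes were measured. Prosalpha7, a structural alpha subunit, had a lowest, median and highest ratio of -0.53, -0.36 and 0.09 over the 6 arrays at 0 h, of -0.03, 0.19 and 0.30 at 12 h, of 0.11, 0.16 and 0.69 at 24 h, and of -0.23, 0.16 and 0.40 at 48 h. All arrays at 24 h lay above all arrays at 0 h. Prosalpha7 was the single core gene that passed, with a rise of 0.58 ± 0.15 (SE, 6 arrays a time) at 24 h minus 0 h and an adjusted p of 0.0199 in limma's test. Its difference at 12 h minus 0 h was 0.45 ± 0.15, with an adjusted p of 0.0542.

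The other alpha genes did not pass in any comparison, and they divided. Prosalpha5 and Prosalpha6 had positive fitted differences at 12 and 24 h minus 0 h, as Prosalpha7 did. These were 0.23 and 0.11 for Prosalpha5 and 0.09 and 0.13 for Prosalpha6. Those of Prosalpha2, Prosalpha3 and Prosalpha4 were negative. Prosalpha2 had the highest core ratio at 0 h, 0.22 ± 0.08, with arrays at -0.02, 0.21 and 0.51 (lowest, median and highest). Its ratios at 12, 24 and 48 h were -0.05, -0.09 and -0.04, and no difference passed. The 2 features of Prosalpha2 gave like ratios, 0.20 and 0.24 at 0 h. Prosalpha3 likewise had a ratio of 0.19 ± 0.08 at 0 h and the lowest core ratio at 24 h, -0.13, so that its difference at 24 h minus 0 h was -0.32 ± 0.11 with an adjusted p of 0.0702. Prosalpha2 and Prosalpha3 thus had fitted differences opposite in sign to that of Prosalpha7.

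Prosalpha5 had the highest core ratio at 12 h, 0.23 ± 0.09, with all 6 arrays above 0 (0.08, 0.20 and 0.44 as lowest, median and highest), but an adjusted p of 0.171. Prosalpha4 and Prosalpha6 stayed between -0.06 and 0.11 at every time.

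In the beta ring, 4 of the 7 subunit genes were measured and none passed. Prosbeta5 carries the chymotrypsin-like site, the activity most often taken as a readout of the proteasome. Its arrays ran from -0.33 to 0.11 at 0 h (median -0.11), from -0.20 to 0.20 at 12 h (median 0.04), from -0.48 to 0.28 at 24 h (median -0.06) and from -0.18 to 0.18 at 48 h (median -0.05). The arrays of all times overlapped, and the difference at 12 h minus 0 h was 0.18 ± 0.11 with an adjusted p of 0.343. At 24 h minus 0 h the difference was 0.05 ± 0.11 with an adjusted p of 0.836.

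The remaining beta genes are structural. Prosbeta4 was above 0 on all 6 arrays at 0 h (0.14, 0.15 and 0.27 as lowest, median and highest), and its highest array at 12 h was 0.03 and at 24 h 0.07. Its arrays at both later times lay below all those at 0 h, yet its differences did not pass. Across all features, 3.38% lay below in this way at 12 h and 2.48% at 24 h. Prosbeta4 had the lowest core ratio at 12 h, -0.08. Prosbeta7 went the other way, with ratios of -0.10, 0.18, 0.20 and -0.04 in time order and an adjusted p of 0.103 at 12 h minus 0 h. Prosbeta3 was the highest core gene at 48 h, 0.12, where Prosalpha3 was the lowest at -0.04.

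The base of the cap held the ATPases Rpt2, Rpt3 and Rpt5 among the genes measured, and they divided. For Rpt2, arrays were at -0.38, -0.22 and -0.04 at 0 h (lowest, median and highest), at 0.06, 0.24 and 0.50 at 12 h, at 0.08, 0.11 and 0.55 at 24 h, and at -0.24, -0.13 and 0.15 at 48 h. All arrays at 12 and 24 h lay above all arrays at 0 h. Rpt2 rose by 0.47 ± 0.10 at 12 h with an adjusted p of 0.00474, and the rise at 24 h was 0.41 ± 0.10 with an adjusted p of 0.0168 relative to 0 h.

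For Rpt3, arrays were at -0.57, -0.32 and 0.01 at 0 h, at -0.08, 0.22 and 0.56 at 12 h, at -0.01, 0.19 and 0.29 at 24 h, and at -0.37, -0.13 and 0.17 at 48 h. The arrays of later times overlapped those of 0 h. Rpt3 rose by 0.49 ± 0.13 at 12 h with an adjusted p of 0.0176, and the rise at 24 h was 0.42 ± 0.13 with an adjusted p of 0.0457. The call at 24 h was lost in 16 of 24 fits that left out 1 array each (adjusted p up to 0.0909) and in 8 of 12 that left out a pair (up to 0.253).

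Rpt5 moved in the opposite direction. Its arrays were at -0.04, 0.13 and 0.37 at 0 h, at -0.17, -0.05 and 0.05 at 12 h, at -0.55, -0.10 and 0.01 at 24 h, and at -0.20, -0.08 and -0.02 at 48 h. It fell by 0.32 on the log2 scale at 24 h relative to 0 h (SE 0.09, adjusted p 0.0329), and its lowest arrays at 24 h were both partners of the pair of replicates 1 and 5. Without that pair the difference was -0.18 with an adjusted p of 0.192.

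The base scaffolds Rpn1 and Rpn2 and the ubiquitin receptor Rpn13 did not pass in any comparison. Rpn1 was above 0 on all 6 arrays at 0 h, with a ratio of 0.09, and had -0.10, -0.13 and 0.09 at 12, 24 and 48 h, the last the highest cap ratio of that time. Rpn2 had -0.01, 0.07, -0.12 and 0.01, and Rpn13 had 0.08, 0.11, 0.01 and -0.06, in time order.

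In the lid, 3 of the 7 genes measured rose. Rpn7, a scaffold subunit, had arrays at -0.84, -0.31 and 0.01 at 0 h, at 0.16, 0.21 and 0.89 at 12 h, at 0.03, 0.31 and 0.52 at 24 h, and at -0.26, -0.003 and 0.14 at 48 h. All arrays at 12 and 24 h lay above all arrays at 0 h. Its rise of 0.72 ± 0.16 at 12 h (adjusted p 0.00531) was the highest of the 34 members, and at 24 h it was 0.61 ± 0.16 (adjusted p 0.0195). Rpn7 had the highest cap ratio at both times, 0.40 and 0.29, and neither passed against 0.

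Rpn3, also a scaffold subunit, had arrays at -0.73, -0.38 and 0.03 at 0 h, at -0.03, 0.12 and 0.72 at 12 h, at 0.04, 0.14 and 0.47 at 24 h, and at -0.18, 0.03 and 0.27 at 48 h. It was lower in dmyc discs at 0 h, -0.34 ± 0.10 with an adjusted p of 0.0434, the lowest cap ratio of that time. That call was lost in 12 of 24 fits that left out 1 array each, with adjusted p up to 0.129. Relative to 0 h it rose by 0.59 ± 0.14 at 12 h with an adjusted p of 0.00785, and the rise at 24 h was 0.52 ± 0.14 with an adjusted p of 0.0219. Arrays at 24 h lay above all those at 0 h, while those at 12 h overlapped them.

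Rpn11, the lid deubiquitinase, had arrays at -0.41, -0.29 and 0.06 at 0 h, at -0.13, 0.16 and 0.52 at 12 h, at 0.03, 0.25 and 0.45 at 24 h, and at -0.13, -0.09 and 0.29 at 48 h. The later arrays overlapped those at 0 h. Rpn11 rose by 0.43 ± 0.12 at 12 h with an adjusted p of 0.0211, and the rise at 24 h was 0.47 ± 0.12 with an adjusted p of 0.019.

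The remaining lid genes did not pass in any comparison. Rpn8, which pairs with Rpn11 and lacks its deubiquitinase activity, had the highest cap ratio at 0 h, 0.17 ± 0.06, and -0.04, -0.07 and -0.11 later. Rpn5, another scaffold subunit, had the lowest cap ratio at 12, 24 and 48 h, -0.10, -0.33 and -0.19. At 24 h its arrays were at -0.56, -0.43 and 0.11, and its difference from 0 h was -0.39 ± 0.13 with an adjusted p of 0.0591. Rpn6 had ratios of -0.05, 0.08, 0.04 and 0.00, and its arrays at 12 h, 0.02 to 0.13, lay above all those at 0 h, -0.16 to 0.01, with an adjusted p of 0.134. Across all features, 5.5% lay above in this way at 12 h and 4.84% at 24 h. Rpn12 had 0.11, 0.02, 0.06 and -0.15. Within the lid, fitted differences at 24 h minus 0 h spanned -0.39 to 0.61.

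**Figure D2:**
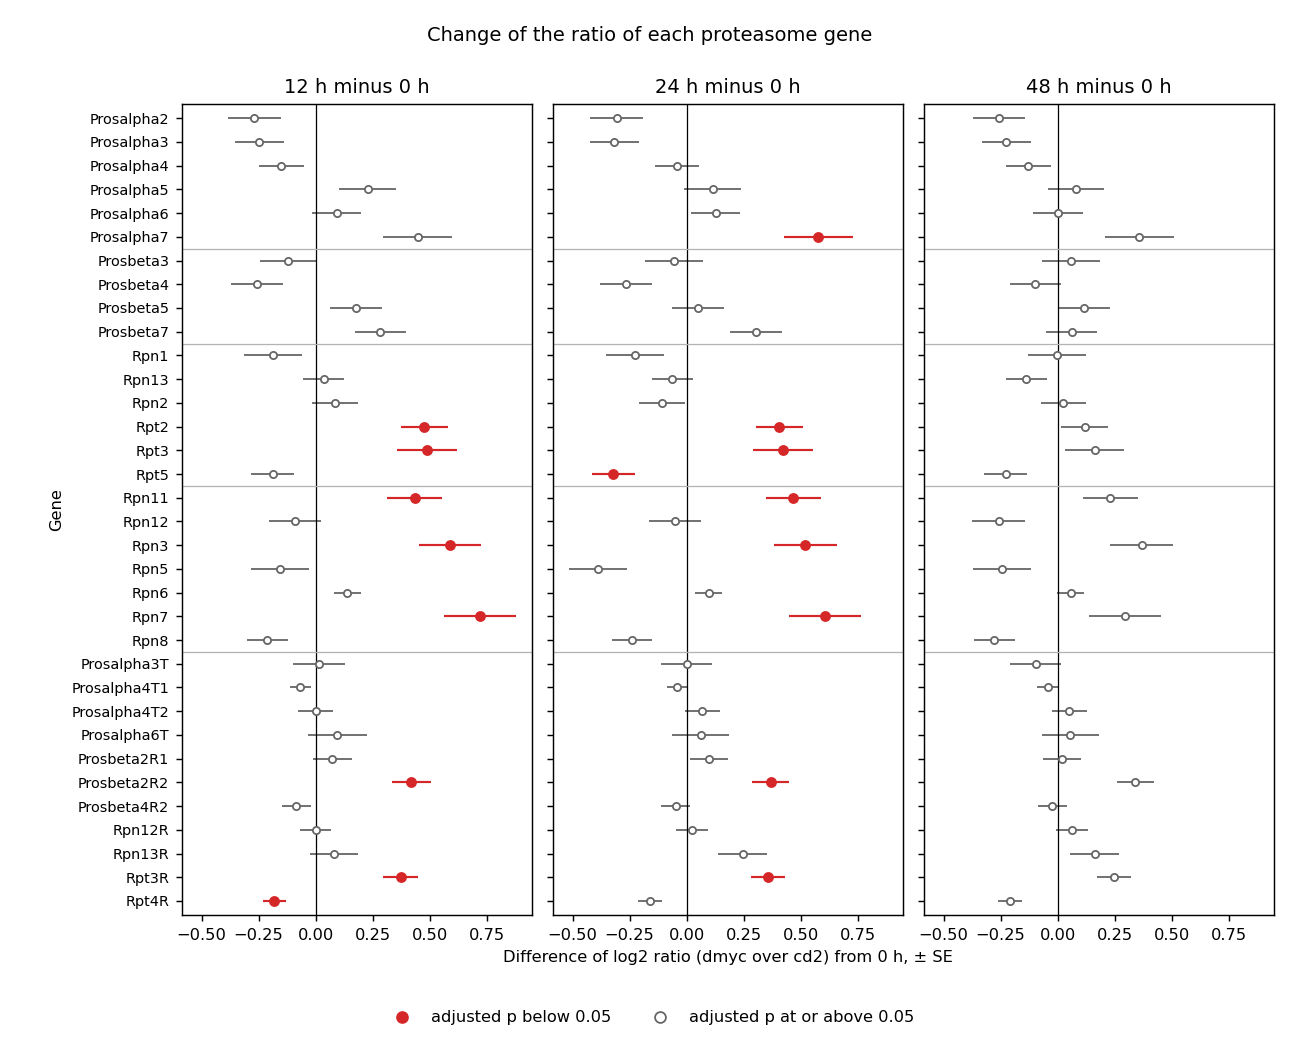
Difference of the log2 ratio (dmyc over cd2) at 12, 24 and 48 h from that at 0 h (horizontal axis, ± SE) for each of the 34 genes (vertical axis), with grey lines between alpha ring, beta ring, base, lid and paralogues. Filled red points passed (adjusted p below 0.05): 8 genes at 12 h, 9 at 24 h and none at 48 h.

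The 6 core and cap genes that rose had similar courses over the partner pairs. They were chosen by their difference from 0 h, so part of this likeness follows from the choice. At 0 h the pair of replicates 1 and 4 had mean ratios of -0.07 for Rpn3, -0.02 for Rpn7, 0.01 for Rpn11, -0.04 for Rpt2, 0.01 for Rpt3 and 0.08 for Prosalpha7. The other pairs at 0 h had -0.40 and -0.56 for Rpn3, -0.41 and -0.53 for Rpn7, and between -0.27 and -0.46 for the other 4 genes. At 12 h the pair of replicates 3 and 6 was the highest for the 5 cap genes, with 0.63 for Rpn3, 0.81 for Rpn7 and 0.51 for Rpn11, while the pair of replicates 1 and 4 had -0.01, 0.18 and -0.01. At 24 h the pair of replicates 3 and 4 was the highest for all 6 genes, with 0.64 for Prosalpha7 and 0.52 for Rpn7. The ratios of these genes therefore differed between pairs of the same time. The course was not particular to them. Prosbeta7, which did not pass, had pair means of 0.03, -0.18 and -0.15 at 0 h and -0.09, 0.13 and 0.51 at 12 h, in the order of replicates 1, 2 and 3. Not every member ran so, as Prosalpha2 had 0.17, 0.11 and 0.38 at 0 h.

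The counts rest on few pairs. At 12 h minus 0 h, leaving out 12 h replicates 3 and 6 left 1 member (Rpt3R), and 4 passed without 0 h replicates 2 and 5, and 3 without 0 h replicates 3 and 6. At 24 h minus 0 h, 0 members passed without 0 h replicates 2 and 5, 0 without 0 h replicates 3 and 6, and 1 without 24 h replicates 3 and 4. The calls at 0 h numbered 8 without 0 h replicates 1 and 4, and 0 without either other pair of 0 h. Without 0 h replicates 1 and 4, 5 members passed at 48 h minus 0 h, and without either other pair of 0 h none passed for any change over time. Every difference that passed kept its sign in these fits wherever it could be tested. Prosbeta2R2 had too few values without some of these pairs.

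**Figure D3:**
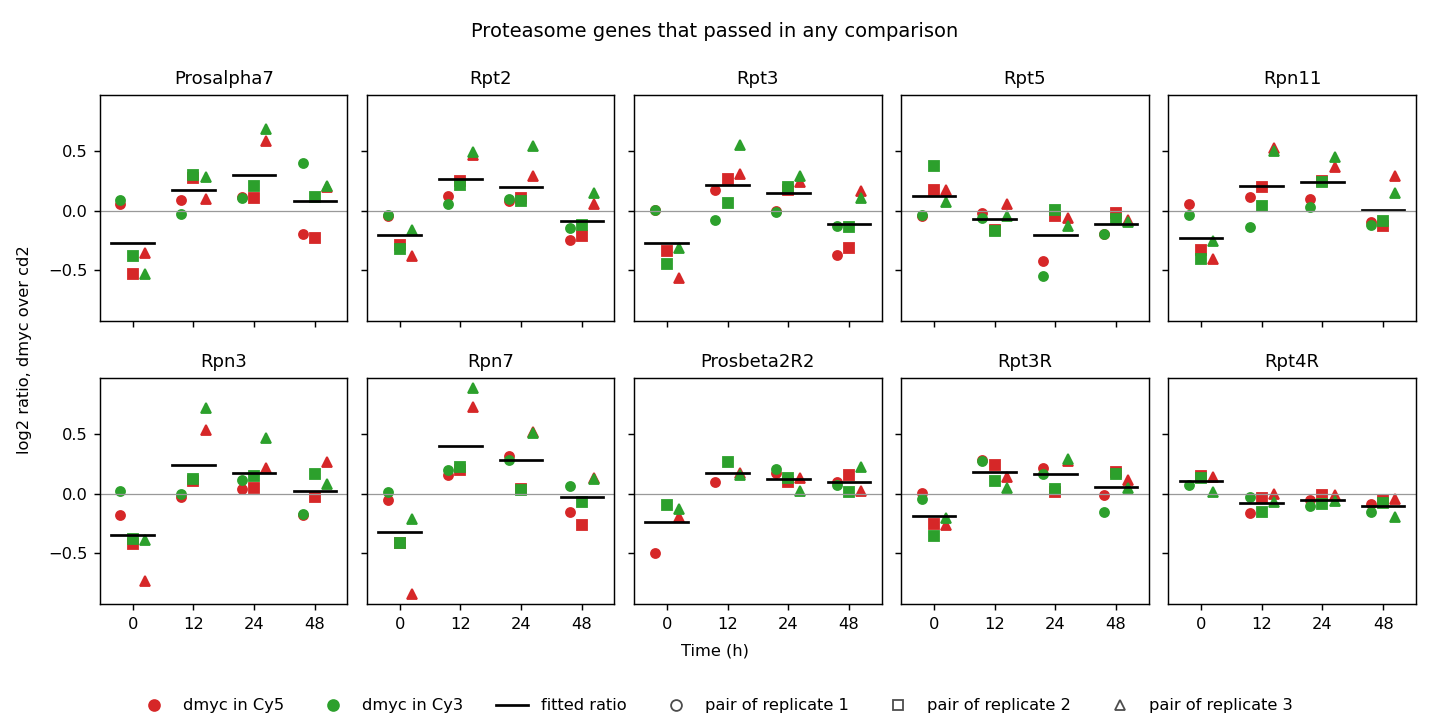
Log2 ratio (dmyc over cd2, vertical axis) on each array at 0, 12, 24 and 48 h (horizontal axis) for the 10 genes that passed in any comparison; colour gives the dye of dmyc, symbols the partner pair and bars the fitted ratio. Rpn7 at 12 h has 1 pair near 0.81 and the other pairs near 0.2, and Rpt4R is above 0 at 0 h and at or below 0 on nearly all later arrays.

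Among the 11 paralogues, Rpt3R, a duplicate of Rpt3, had arrays at -0.36, -0.23 and 0.01 at 0 h, at 0.05, 0.20 and 0.29 at 12 h, at 0.02, 0.20 and 0.29 at 24 h, and at -0.15, 0.08 and 0.19 at 48 h. Arrays at 12 and 24 h lay above all those at 0 h. Rpt3R was lower in dmyc discs at 0 h, -0.19 ± 0.05 with an adjusted p of 0.0469. That call was lost in 18 of 24 fits that left out 1 array each, with adjusted p up to 0.129. It rose by 0.37 ± 0.08 at 12 h with an adjusted p of 0.00355, and the rise at 24 h was 0.36 ± 0.08 with an adjusted p of 0.00684.

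Prosbeta2R2, a duplicate of the catalytic Prosbeta2, was measured on 4 arrays at 0 h (-0.50, -0.16 and -0.10 as lowest, median and highest), on 4 at 12 h (0.10, 0.17 and 0.27), on 6 at 24 h (0.03, 0.13 and 0.21) and on 6 at 48 h (0.02, 0.09 and 0.23). Every array at 12, 24 and 48 h lay above every array at 0 h. Of all features, 5.5%, 4.84% and 1.6% did so at 12, 24 and 48 h. With 4 arrays at 0 h such a separation is easier than with 6. It was the lowest paralogue at 0 h, -0.24 ± 0.06 with an adjusted p of 0.0279. Prosbeta2R2 rose by 0.42 ± 0.09 at 12 h with an adjusted p of 0.00442, and the rise at 24 h was 0.37 ± 0.08 with an adjusted p of 0.0106. Its 0 h ratio came lowest from replicate 1, whereas the cap genes that rose were near 0 in the pair of that array.

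Rpt4R, a duplicate of Rpt4, ran the other way with a small difference. It was above 0 on all 5 arrays measured at 0 h (0.02, 0.14 and 0.15), and reached at most 0.003 at 12 h, -0.01 at 24 h and -0.04 at 48 h. Every later array lay below every array at 0 h. Of all features, 3.38%, 2.48% and 1.09% lay below in this way at 12, 24 and 48 h. Rpt4R fell by 0.18 on the log2 scale at 12 h (SE 0.05, adjusted p 0.022), and had differences of -0.16 at 24 h (adjusted p 0.0506) and -0.21 at 48 h (adjusted p 0.074). It was the highest paralogue at 0 h, 0.11, and the lowest at 12, 24 and 48 h, at -0.07, -0.05 and -0.10.

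The other 8 paralogues did not pass in any comparison. Rpn13R had the highest paralogue ratio at 24 h, 0.20 ± 0.07 with an adjusted p of 0.167, and at 48 h, 0.12. Its 24 h arrays ran from -0.09 to 0.63. The paralogue Prosalpha6T had ratios of -0.07, 0.03, -0.01 and -0.01 in time order, and Prosalpha3T had 0.03, 0.04, 0.03 and -0.07. Ratios of Prosalpha4T1, Prosalpha4T2, Prosbeta2R1, Prosbeta4R2 and Rpn12R lay between -0.03 and 0.08 at every time. Of these, Prosalpha4T1 had every one of its 24 values between -0.12 and 0.09.

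Testis markers give the context for the paralogues. Of 18 such genes, 5 were measured, and none passed in a comparison with 0 h or at 0, 12 or 24 h. Their array means were -0.11 to 0.09 at 12 h and 0.01 to 0.07 at 0 h. Mst98Cb was higher in dmyc discs at 48 h, 0.21 ± 0.05 with an adjusted p of 0.0473. Ratios cannot show whether a paralogue or a testis marker was transcribed in the discs at all.

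Core and cap were also set against each other on each array, by the median of the 10 core genes minus that of the 13 cap genes. The difference was 0.01 ± 0.12, -0.05 ± 0.09, -0.004 ± 0.08 and 0.07 ± 0.08 (mean ± SD, 6 arrays) at 0, 12, 24 and 48 h. It was above 0 on 3, 2, 3 and 5 of the 6 arrays. The mean difference was within 1 SD of 0 at every time. A median hides the divergence inside the cap, where genes that rose stood beside Rpn5, Rpn8 and Rpt5. Over the core genes, the SD of the ratios on an array was 0.104 to 0.278 at 0 h and 0.0991 to 0.276 at 12 h. Over the cap genes it was 0.107 to 0.415 at 0 h and 0.104 to 0.353 at 12 h.

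**Figure D4:**
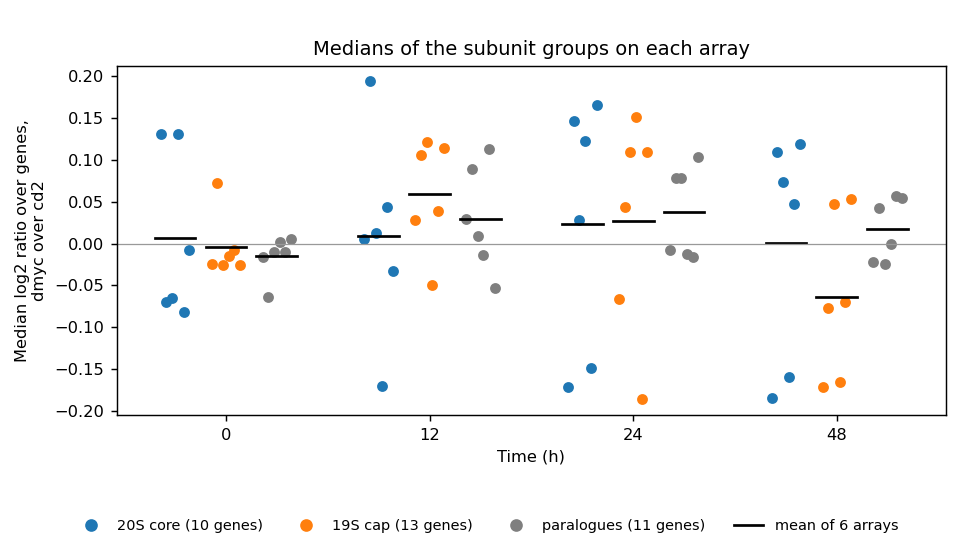
Median log2 ratio (dmyc over cd2, vertical axis) over the 10 core genes, 13 cap genes and 11 paralogues on each of the 6 arrays at 0, 12, 24 and 48 h (horizontal axis); bars are means over arrays. The points of core and cap overlap at every time, and the difference of the medians averages between -0.05 and 0.07.

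Genes that act beside the proteasome were counted in the same fit. Of all features, 9.05% were called higher and 3.35% lower at 12 h minus 0 h. At 24 h minus 0 h these shares were 6.16% and 2.47%, and at 0 h 4.83% were called in either direction. No list was tested against these shares. All 9 genes of a list of assembly factors, activators and regulators were measured. At 12 h minus 0 h, 1 rose and 3 fell: CG12321 rose by 0.35 ± 0.10, maf-S, a small Maf protein that pairs with the proteasome regulator Cnc, fell by 0.42 (SE 0.09), the proteasome regulator PI31 fell by 0.31 (SE 0.08) and CG9588 fell by 0.28 (SE 0.09). At 24 h minus 0 h, Pomp, the core maturation chaperone, rose by 0.54 ± 0.15 and CG12321 by 0.46 ± 0.10, while maf-S fell by 0.52 (SE 0.09) and PI31 fell by 0.28 (SE 0.08). At 0 h, the core activator REG was higher in dmyc discs, 0.32 ± 0.08, as was maf-S, 0.27 ± 0.07, and CG12321 was lower, -0.29 ± 0.07. Adjusted p in limma's test was 0.00378 to 0.0417 for these 11 results. The list therefore moved in both directions. Of the cap genes, 5 rose and 0 fell at 12 h minus 0 h, and 5 rose and 1 fell at 24 h minus 0 h.

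Among 12 measured genes of 17 in the list of ubiquitin, shuttle and deubiquitinating factors, 3 rose and 0 fell at 12 h minus 0 h. At 24 h minus 0 h, 2 rose and 0 fell. The background was 9.05% of all features called higher at 12 h and 6.16% at 24 h. The TER94 cofactor p47 rose by 0.56 ± 0.11 at 12 h and by 0.63 ± 0.11 at 24 h, and was higher in dmyc discs at 24 h, 0.36 ± 0.08. The shuttle factor rngo rose by 0.42 ± 0.10 at 12 h. The deubiquitinase Yod1 rose by 0.21 ± 0.07 at 12 h and by 0.26 ± 0.07 at 24 h. At 0 h, p47 was lower in dmyc discs, -0.27 ± 0.08, and so was rngo, -0.29 ± 0.07.

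The COP9 signalosome and a part of eIF3 are built on the same architecture as the lid. The eIF3 genes of that part were not counted apart from the others. Of 8 measured signalosome genes, 3 rose and 1 fell at 12 h minus 0 h, beside 9.05% and 3.35% of all features. The deneddylase CSN5, the counterpart of Rpn11, rose by 0.60 ± 0.10, CSN1b by 0.61 ± 0.14 and the scaffold alien by 0.58 ± 0.15, while CSN7 fell by 0.35 (SE 0.11). At 24 h minus 0 h, CSN5 rose by 0.52 ± 0.10 and CSN1b by 0.44 ± 0.14, and CSN7 fell by 0.40 (SE 0.11). At 0 h, CSN5 was lower in dmyc discs, -0.40 ± 0.07, and so was CSN1b, -0.34 ± 0.10. The signalosome thus also held genes with changes in both directions.

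Of 15 measured eIF3 genes, which encode a translation initiation factor, 5 rose and 0 fell at 12 h minus 0 h. At 24 h minus 0 h, 4 rose and 0 fell. Of all features, 9.05% were called higher at 12 h and 6.16% at 24 h minus 0 h. The scaffold eIF3b rose by 0.98 ± 0.30 at 12 h and 1.09 ± 0.30 at 24 h. The subunit eIF3j rose by 0.74 ± 0.11 at 12 h and 0.39 ± 0.11 at 24 h. The rises at 12 h were 0.65 ± 0.17 for eIF3d1, 0.48 ± 0.13 for eIF3g1 and 0.65 ± 0.16 for eIF3h. At 24 h they were 0.86 ± 0.17 for eIF3d1 and 0.61 ± 0.13 for eIF3g1. Median differences at 12 h minus 0 h were 0.05 over the 34 proteasome genes, 0.05 over eIF3 and 0.03 over the signalosome, beside -0.0006 over all features. At single times, eIF3j was higher at 12 h, 0.43 ± 0.08, and eIF3d1 and eIF3g1 at 24 h, 0.52 ± 0.12 and 0.40 ± 0.09, while eIF3j was lower at 0 h, -0.31 ± 0.08. The array means of eIF3 at 0 h were 0.17 and 0.15 on replicates 1 and 4, and -0.30 to -0.15 on the others. At 12 h they were highest on replicates 3 and 6, 0.29 and 0.28. The 5 cap genes that rose at 12 h were highest in the same pairs.

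Some markers of the trachea and of the wing pouch changed between the same times. Of 5 tracheal markers, 4 were measured. Of these, verm (by 1.01 ± 0.14) and serp (by 0.51 ± 0.11) rose at 12 h minus 0 h, and verm (by 0.76 ± 0.14) and sinu (by 0.51 ± 0.15) rose at 24 h minus 0 h. The array means of the tracheal list were 0.14 to 0.41 at 12 h and -0.04 to 0.34 at 24 h, against -0.51 to -0.09 at 0 h. The mean ratio of verm was -0.23, -0.64 and -0.64 in the pairs of replicates 1 and 4, 2 and 5, and 3 and 6 at 0 h, and 0.39, 0.43 and 0.70 in the like-numbered but separate pairs at 12 h. The 5 cap genes that rose at 12 h likewise had their highest 0 h ratio in the pair of replicates 1 and 4 and their highest 12 h ratio in that of replicates 3 and 6. The part of tracheal RNA in the proteasome result was not tested.

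Of 4 wing pouch markers, all measured, nub rose by 0.54 ± 0.07 and vg fell by 0.54 (SE 0.14) at 12 h minus 0 h, and nub rose by 0.39 ± 0.07 and vg fell by 0.53 (SE 0.14) at 24 h minus 0 h. Their list's array means were -0.13 to 0.08 at 12 h and -0.12 to 0.12 at 0 h. At 0 h, nub had mean ratios of -0.10, -0.34 and -0.32 in the pairs of replicates 1 and 4, 2 and 5, and 3 and 6. At 12 h it had 0.27, 0.20 and 0.395 in the like-numbered pairs, so its highest pairs were those of verm and the 5 cap genes. The pairs of vg had 0.26, 0.30 and 0.32 at 0 h, and -0.23, -0.28 and -0.23 at 12 h. None of the 5 measured fat body markers of 9, the 4 measured blood cell markers of 5 or the 3 measured myoblast markers of 4 passed in any comparison. The array means of the fat body list ranged widely, -0.27 to 1.00 at 12 h, -0.50 to 1.11 at 24 h and 0.26 to 1.31 at 48 h, against -0.74 to 0.71 at 0 h. The part of these cells and regions in the result was not tested.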

How the data were processed

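Wing disc RNA of both genotypes was compared on 24 two-colour arrays, 6 at each time. The authors deposited 1 log2 ratio per row and array. Not given in the sources used here were the log base, scanner, background correction and normalization, and base 2 was taken. Signal over background is not part of these values, so the number of arrays limits the precision. Per the labels' protocols, RNA was amplified in 2 rounds before labelling, which can distort ratios.

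Of 12359 rows, 169 at inferred control positions were left out. Rows were named from the platform annotation (10289 with 1 gene, 56 with several, 1845 with none), and 9896 single-gene rows were found in the RefSeq gene table. Arrays were centred on their medians (-0.009 to 0.008), rows of a gene were averaged, and 4 or more values were required at each time, which left 8815 named genes and 1846 unnamed features. The median over the proteasome genes, the counts and the fits were computed from these centred ratios.

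The fit used limma 3.58.1 in R 4.3.3 (lmFit, duplicateCorrelation and eBayes) on all 24 arrays, with 1 coefficient per time, 1 dye coefficient, and dye-swap partner pairs, found as the best-correlated arrays of opposite dye, as a random block (correlation 0.443). P-values were adjusted by Benjamini-Hochberg over all 10661 features of a comparison, with a threshold of 0.05. Every adjusted p in the text comes from this test, which was tested on simulated data. Paralogues were recognised by the letters after their subunit number. Subunits, lists and the rule for naming genes (members with a call, the highest and lowest of core, cap and paralogues at each time, catalytic subunits, every paralogue, list members with a call, and fwe) were chosen with earlier results of these data known. The pair means and the values in single arrays are descriptions. Alternatives covered the treatment of pairs, the replicate number, centring, quantile normalization, missing values, the dye coefficient, the arrays in the fit, array weights, averaging of rows, and each array left out. Leaving out each pair was added after the data were seen.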

Additional observations from a re-analysis of the deposited data

Results flagged for a closer look

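At 48 h, Prosalpha3T stood at -0.55 on replicate 1, with its nearest other array at -0.06, a gap of 0.714 of the whole range. It was the only such array among 136 groups of gene and time tested. With independent values, chance alone would mark about 1 group in 20, but arrays came in correlated pairs, so that rate need not hold here.

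The remaining results are differences of the ratio between times that passed the test of the difference itself. At 12 h minus 0 h these were 0.72 for Rpn7, 0.59 for Rpn3, 0.49 for Rpt3, 0.47 for Rpt2, 0.43 for Rpn11, 0.42 for Prosbeta2R2, 0.37 for Rpt3R and -0.18 for Rpt4R. At 24 h minus 0 h they were 0.61 for Rpn7, 0.58 for Prosalpha7, 0.52 for Rpn3, 0.47 for Rpn11, 0.42 for Rpt3, 0.41 for Rpt2, 0.37 for Prosbeta2R2, 0.36 for Rpt3R and -0.32 for Rpt5. In 7 of the 8 genes at 12 h and 8 of the 9 at 24 h the later ratio was the higher.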

How the results depend on the processing

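The medians over the 34 genes and the core minus cap differences moved by less than their SD between partner pairs under every alternative run. Here core minus cap was the median of the fitted core ratios minus that of the fitted cap ratios. It is not the mean of the array differences given above. Several of them crossed 0 in fits that left out arrays or pairs, at -0.04 to 0.12 for core minus cap at 0 h and -0.05 to 0.03 at 24 h. No single-gene difference that passed changed sign, while the counts of genes past the threshold depended on how partner pairs were treated. With partner pairs not in the fit, the counts were 9, 4, 4 and 1 at 0, 12, 24 and 48 h, 16 and 4 at 24 and 48 h minus 0 h, and 11 for any change. With partners averaged they were 0 at 0 h, 1 at 12 h minus 0 h, 0 at 24 h minus 0 h and 0 for any change. Array weights gave 13, 2 and 1 at 0, 12 and 24 h, 14, 15 and 5 at 12, 24 and 48 h minus 0 h, and 13 for any change. Quantile normalization gave 0 at 0 h, and so did fitting the arrays of the times compared alone. Without a dye coefficient, 1 gene passed at 12 h and 1 at 24 h. The replicate block gave 1 gene at 0 h and 4 for any change. Over all times pooled, same-numbered arrays of different times did not deviate together (36 correlations from -0.53 to 0.49, median -0.02). Between 12 and 24 h, however, Cy5 arrays of the same number correlated at 0.34, 0.38 and 0.49, and those of other numbers at -0.34 to -0.06. Cy3 replicates 4, 5 and 6 of 12 h correlated at 0.36, 0.42 and 0.45 with replicates 5, 6 and 4 of 24 h. These are the partners of the same-numbered Cy5 arrays. Arrays of 0 h also correlated with some later arrays of other numbers. Cy5 replicate 2 of 0 h did so at 0.44 with replicate 3 of 12 h and at 0.48 with replicate 3 of 24 h. Its Cy3 partner, replicate 5, had 0.28 and 0.38 with the partners of those arrays. Other correlations of 0 h with later arrays ran down to -0.53. The main fit did not link pairs of different times.

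Leaving out single arrays or pairs gave 0 to 8 genes at 0 h, 0 to 3 at 12 h, 0 to 2 at 24 h, 0 to 0 at 48 h, 1 to 10 at 12 h minus 0 h, 0 to 12 at 24 h minus 0 h, 0 to 5 at 48 h minus 0 h and 0 to 8 for any change. With single arrays left out, the range was 7 to 10 at 12 h minus 0 h and 6 to 10 at 24 h minus 0 h. At 0 h, 8 genes passed without 0 h replicates 1 and 4, and none did without either of the other 0 h pairs or the 12 h pair of replicates 2 and 5. Without 0 h replicates 1 and 4, 5 genes passed at 48 h minus 0 h and 3 at 12 h. For any change, 0 passed without 0 h replicates 2 and 5 or 3 and 6. Single arrays mattered at 0 h too: 0 genes passed when replicate 3, 5 or 6 of 0 h was removed, and the same held for replicate 1 of 12 h. In each of these fits Prosbeta2R2 had too few values to be tested. The cause was not tested. No older symbols added a member. The number of pairs limits every count.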
